A study of Mus musculus with 2 samples.

Results

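In mouse liver, 9 genes of insulin and FoxO signalling were described: Depp1, Irs1, Irs2, Insr, Igfbp1, Igfbp2, Foxo1, Foxo3 and Sesn1. They were found by symbol among the 19465 genes of a 10x Visium assay, in which probe pairs are hybridised to a formalin-fixed, paraffin-embedded section and each captured molecule is tagged by place (its spot) and by a unique molecular identifier (UMI). Several cells, in liver mostly hepatocytes, can lie on 1 spot. The set was chosen by measured values, the ratios between the genotypes given below and above all that of Depp1, so those ratios are a description and no test was made of them.

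The study had 1 section from an AEG-1ΔMAC mouse (AEG-1DMAC in the sample labels) and 1 section from an AEG-1fl/fl mouse, both on 1 slide. AEG-1 is the product of Mtdh, and in AEG-1ΔMAC mice a Cre recombinase driven from the Lyz2 locus deletes the floxed gene in myeloid cells, so hepatocytes keep it. AEG-1fl/fl mice carry the same floxed alleles without deletion. Both mice were 27 weeks old. The labels give both a high fat and high sugar diet (HF/HSD) started at 7 weeks of age and continued for 20 weeks, but the study assigns this assay to littermates fed control diet, and which diet these mice ate was not settled here. The libraries are called ΔMAC and fl/fl from here on. With 1 library per genotype, the genotype, the mouse and the section cannot be told apart.

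The filtered ΔMAC library held 45453286 UMIs in 2140 spots, and the fl/fl library 50322850 UMIs in 2540 spots. Levels are given as CPM, the UMIs of a gene per 1000000 UMIs of its library, with an exact Poisson 95% interval. Ratios are given as log2 of ΔMAC over fl/fl, with a Clopper-Pearson 95% interval conditional on the summed count. All intervals cover counting error only. Probes differ between genes in how well they bind, so levels were compared between libraries and places and not between genes. The hepatocyte markers Alb, Ttr, Apoa1, Serpina1c and Hnf4a were all present. They did not share a direction: Alb was lower in ΔMAC (-0.69), while Serpina1c (0.61) and Hnf4a (0.46) were higher. Of the spot barcodes, 1782 occurred in both libraries, since slides of this platform share 1 set of barcodes.

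In the fed liver insulin binds its receptor, encoded by Insr, which phosphorylates the substrates IRS1 and IRS2 and through them activates PI3K and the kinase AKT. AKT phosphorylates the FoxO transcription factors, which then leave the nucleus, so genes that FoxO activates are low after a meal and high in fasting. Igfbp1, Irs2, the gluconeogenic genes Pck1 and G6pc, and Depp1, a gene induced by fasting and progesterone, are among the genes known to respond to FoxO. Liver lobules are also zoned, with periportal hepatocytes (zone 1) upstream in the blood flow and pericentral hepatocytes (zone 3) around the central vein.

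The upstream sequences of Depp1 and Igfbp1 are shown because these FoxO-responsive genes were both lower in ΔMAC, Depp1 far more so. Both were cut from the RefSeq promoter table (GRCm38.p6), plus strand, and end at the last base before the GENCODE start of the gene. The Depp1 sequence is chr6:116650434-116650608 and the capitals mark GTAAATA, a variant of the forkhead core. The Igfbp1 sequence is chr11:7197537-7197781 and the capitals mark CAAAACA, the core of the insulin response element.
Depp1: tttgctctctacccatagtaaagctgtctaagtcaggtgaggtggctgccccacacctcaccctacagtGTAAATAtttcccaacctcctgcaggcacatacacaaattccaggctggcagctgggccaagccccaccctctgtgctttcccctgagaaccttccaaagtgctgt
Igfbp1: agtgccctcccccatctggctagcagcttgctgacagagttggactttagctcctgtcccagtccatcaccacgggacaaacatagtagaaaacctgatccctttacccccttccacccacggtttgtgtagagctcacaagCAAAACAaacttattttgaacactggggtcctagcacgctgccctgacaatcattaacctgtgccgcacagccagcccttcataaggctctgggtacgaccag

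Of the 9 genes, 8 had an entry in that table and Insr had none. Searched on both strands in windows of 300 bases, the FoxO core GTAAACA was in 3.65% of all 32851 windows and, among these genes, in that of Sesn1. CAAAACA was in 6.28% of windows and in those of Igfbp1, Irs1 and Irs2. GTAAATA, which was added to the search after the Depp1 sequence had been seen, was in 3.04% of windows and in that of Depp1, at position -181 from the RefSeq start. A match is only a description of the letters. The motifs do not overlap one another in these windows.

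Depp1 (ENSMUSG00000048489, chromosome 6, 116650609 to 116652794, plus strand, protein-coding; GRCm38) differed most among the 9 genes. It had 1025 UMIs or 22.6 CPM (21.2 to 24.0) in ΔMAC and 5113 UMIs or 101.6 CPM (98.8 to 104.4) in fl/fl. The fl/fl level was 4.51-fold that of ΔMAC, a log2 ratio of -2.17 (-2.27 to -2.07). The median of all 6933 genes whose mean reached 10 CPM was itself at 0.15, and relative to it Depp1 was at -2.32. Only 3 of those genes had a lower ratio. Fewer cells with the RNA and less RNA per cell cannot be told apart in spots.

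Of the 9 genes, 8 reached a mean of 10 CPM, and Foxo3 was below it with 9.02 CPM. Depp1 was the single member past 1.5-fold in either direction, with 0 higher and 1 lower, where 4.3% of all genes were higher and 1.79% lower by that rule. Relative to the median gene the member count was again 0 higher and 1 lower, beside 2.38% and 2.77% of all genes. The 8 genes had a median log2 ratio of 0.04, against 0.15 for all genes. Apart from Depp1, their ratios lay between -0.35 and 0.48.

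**Figure D1:**
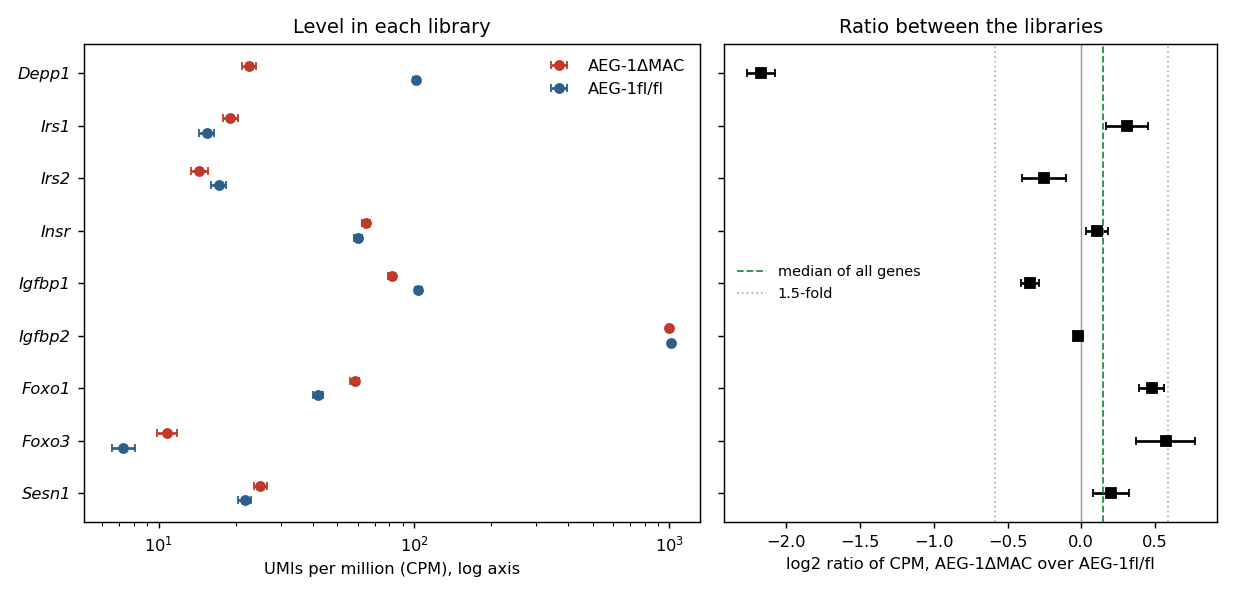
Level of the 9 genes in each library in CPM on a log axis (left, bars are exact Poisson 95% intervals) and the log2 ratio of AEG-1ΔMAC over AEG-1fl/fl (right, bars are exact binomial 95% intervals). Depp1 stands at -2.17, while the other genes lie within the dotted lines at 1.5-fold, around the dashed median of all genes at 0.15.

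Insr, which encodes the insulin receptor (chromosome 8, 3122061 to 3279617, minus strand), had 64.7 CPM in ΔMAC and 60.1 CPM in fl/fl. Its log2 ratio of 0.11 (0.03 to 0.18) was -0.04 relative to the median gene, and it changed sign between scalings, from -0.03 to 0.11. Irs1 (chromosome 1, 82233101 to 82291416, minus strand) had 19.0 CPM in ΔMAC and 15.4 CPM in fl/fl, a log2 ratio of 0.31 (0.17 to 0.45). Irs2 (chromosome 8, 10984681 to 11008458, minus strand), the substrate gene that FoxO induces in fasting, had 14.4 CPM and 17.2 CPM, a log2 ratio of -0.25 (-0.40 to -0.10). The substrate genes therefore lay on opposite sides of the median gene, Irs1 0.16 above it and Irs2 at -0.40 from it, and each kept its sign in all 6 alternative settings.

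The FoxO factors were both higher in ΔMAC. Foxo1 (chromosome 3, 52268336 to 52353221, plus strand) had 58.4 CPM in ΔMAC and 42.0 CPM in fl/fl, a log2 ratio of 0.48 (0.39 to 0.56). Foxo3 (chromosome 10, 42181841 to 42276755, minus strand) had 490 UMIs or 10.8 CPM in ΔMAC and 365 UMIs or 7.25 CPM in fl/fl, a log2 ratio of 0.57 (0.37 to 0.77). Relative to the median gene, Foxo1 was at 0.33 and Foxo3 at 0.43. FoxO activity is set mostly by phosphorylation and location of the protein, which RNA counts do not measure.

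Of the remaining genes, Igfbp1 encodes a secreted IGF-binding protein that insulin represses (chromosome 11, 7197782 to 7202546, plus strand). It had 81.7 CPM in ΔMAC and 103.9 CPM in fl/fl, a log2 ratio of -0.35 (-0.41 to -0.29), and was the lowest of the 9 after Depp1. Igfbp2, another IGF-binding protein (chromosome 1, 72824503 to 72852474, plus strand), had 999.3 CPM and 1017 CPM, a log2 ratio of -0.02 (-0.04 to -0.01). Sesn1, a sestrin that restrains mTORC1 (chromosome 10, 41809935 to 41908424, plus strand), had 24.9 CPM and 21.7 CPM, a log2 ratio of 0.20 (0.08 to 0.32), which lay from 0.06 to 0.34 over the settings. Thus Depp1, Irs2 and Igfbp1, all FoxO-responsive, were lower in ΔMAC by very unequal amounts, and Insr and Sesn1, also on the list of FoxO-regulated genes, were not lower.

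The share of spots with a UMI was compared after each spot was thinned to 10000 UMIs, which left out 26 ΔMAC and 106 fl/fl spots. Depp1 was found in 20.8% of ΔMAC spots (exact binomial 95% interval 19.1 to 22.6) and in 62.3% of fl/fl spots (60.3 to 64.2). Unthinned, the shares were 37.1% and 81.9%. At equal depth, 2.37% and 27.9% of spots held at least 2 Depp1 UMIs, and no spot held more than 3 in ΔMAC or 7 in fl/fl. The variance of the Depp1 count over spots was 1.0 times its mean in ΔMAC and 1.06 times in fl/fl. Molecules scattered at random give a value of 1. The means were only 0.23 and 1.02 UMIs per thinned spot, and at such low means uneven spread can leave the value near 1. It therefore cannot show how evenly Depp1 was spread. In both libraries the Depp1 UMIs came from many spots. Of the other genes, Igfbp1 was in 56.4% and 61.1% of thinned spots, with a variance of 1.04 and 1.22 times the mean, and Foxo1 in 44.6% and 32.3%.

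Spots were placed along the lobule by an index of 3 zone 3 genes (Cyp2e1, Cyp1a2, Oat) minus 6 zone 1 genes (Pck1, Hal, Gls2, Cyp2f2, Hsd17b13, Arg1), and ranked within each library into 3 equal parts and into 10 equal bins. Depp1 had 20.0, 21.0 and 26.7 CPM in the zone 1, middle and zone 3 parts of ΔMAC, and 102.5, 95.4 and 107.2 CPM in those of fl/fl. No part of one library approached the level of the other. The genotype log2 ratio was -2.36 in the zone 1 part, -2.18 in the middle and -2.01 in the zone 3 part. Over the 10 bins, Depp1 lay between 18.5 and 29.8 CPM in ΔMAC and between 92.7 and 114.1 CPM in fl/fl, and was lower in ΔMAC in 10 of 10 bins.

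**Figure D2:**
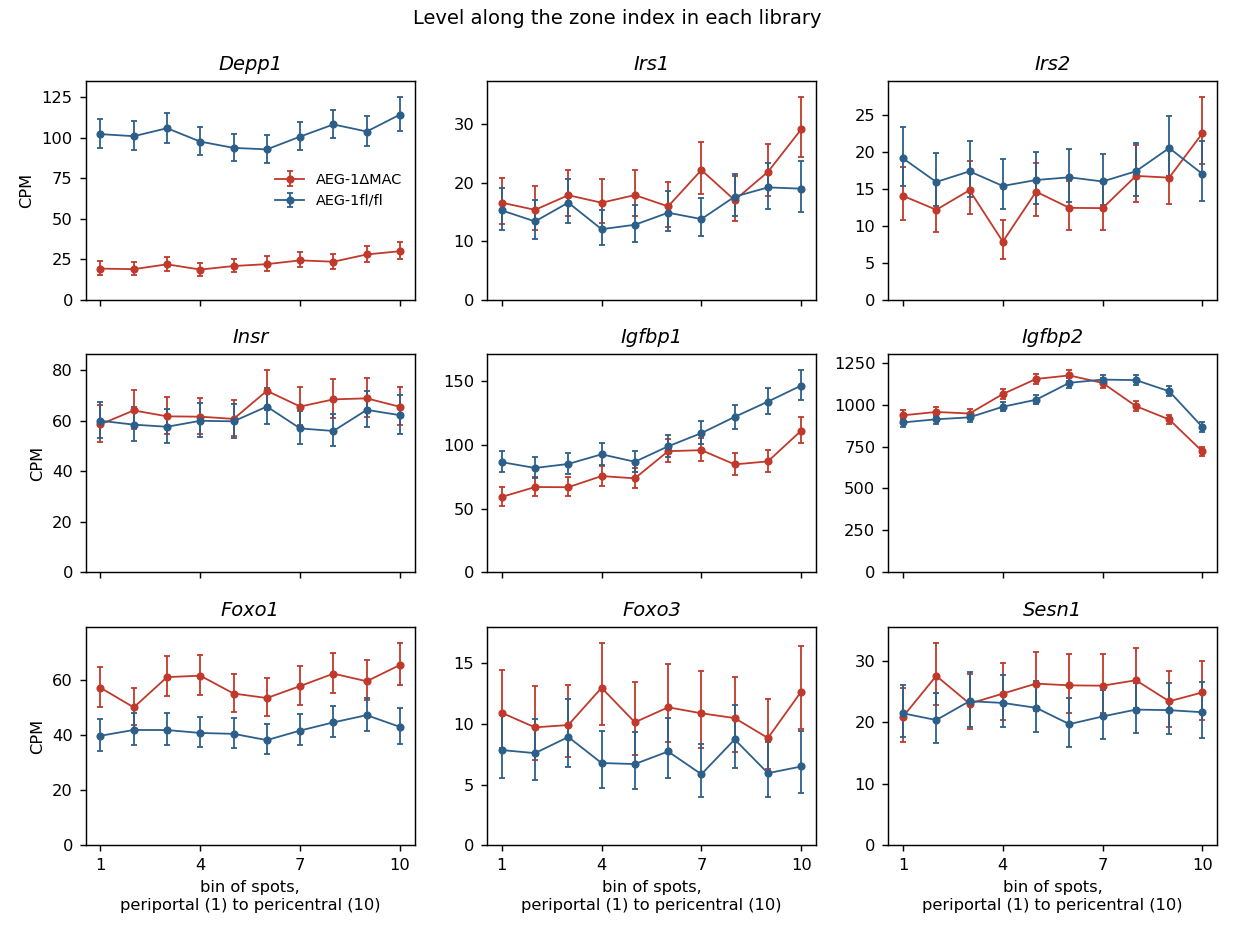
Level of each gene (CPM, from 0) in 10 equal bins of spots ranked from periportal (bin 1) to pericentral (bin 10) within each library, with exact Poisson 95% intervals. The Depp1 lines are apart in all 10 bins, Igfbp1 rises toward bin 10 in both libraries, and Igfbp2 is highest in the middle bins and lowest in bin 10.

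Zonation was measured inside each library as the log2 ratio of the zone 3 part over the zone 1 part, for which the median of all genes was 0.09 in ΔMAC and 0.07 in fl/fl. Depp1 had 0.41 (0.19 to 0.63) in ΔMAC and 0.06 (-0.03 to 0.16) in fl/fl. The first value rests on fewer UMIs and moved to 0.23 with thinned spots and to 0.64 when only the outer bins were used. The difference between the libraries in zonation was not tested.

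Igfbp1 had the clearest gradient and was higher toward the central vein in both libraries. It had 65.1, 85.5 and 94.6 CPM in the zone 1, middle and zone 3 parts of ΔMAC, and 85.7, 95.7 and 131.3 CPM in fl/fl. Zone 3 over zone 1 was 0.54 (0.42 to 0.66) and 0.62 (0.52 to 0.71), so that Igfbp1 was past 1.5-fold in fl/fl and just under it in ΔMAC. No other gene of the 9 was past it. Among all genes, 2.93% were higher and 1.95% lower in the zone 3 part by that rule in ΔMAC, and 2.8% and 1.68% in fl/fl. Igfbp1 was lower in ΔMAC in 10 of 10 bins.

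Igfbp2, which the study used as a midlobular marker, had 958.2, 1142 and 894.8 CPM in the zone 1, middle and zone 3 parts of ΔMAC, and 917.3, 1073 and 1058 CPM in fl/fl. The middle part was above the other parts combined in both libraries, by 0.30 and 0.12 on the log2 scale. Zone 3 over zone 1 was -0.10 (-0.13 to -0.06) in ΔMAC and 0.21 (0.17 to 0.24) in fl/fl. With only the outer bins the fl/fl value turned to -0.046. Bin 10 was the lowest of all in both libraries, at 720.4 and 865.6 CPM. The highest level was in bin 6 in ΔMAC and in bin 7 in fl/fl, 1173 and 1149 CPM. When both libraries were divided at the same index values, the zone 3 part held 43.7% of ΔMAC spots and 24.6% of fl/fl spots. The Igfbp2 ratio there moved from -0.24 to -0.09. The index genes themselves differed between the libraries, so equal index values need not mark the same place in the lobule. Over the whole section, all zone 3 index genes were higher in ΔMAC: Cyp2e1 (1.35), Cyp1a2 (1.05) and Oat (0.88). The zone 1 index genes lay between -0.48 (Hsd17b13) and 0.78 (Pck1).

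Irs1 had a zone 3 over zone 1 log2 ratio of 0.47 (0.23 to 0.71) in ΔMAC and 0.26 (0.02 to 0.51) in fl/fl, and the fl/fl interval held the value of the median gene. Irs2 had 0.46 (0.19 to 0.73) in ΔMAC and 0.06 (-0.19 to 0.30) in fl/fl, and its genotype ratio was -0.38 and -0.46 in the zone 1 and middle parts but 0.03 in the zone 3 part. Divided at the same index values, which need not mark the same place in both libraries, that last ratio was -0.18. Insr, Foxo1, Foxo3 and Sesn1 had values between -0.18 and 0.16, with intervals that all held the value of the median gene. Foxo1 and Foxo3 were higher in ΔMAC in 10 of 10 bins, Irs1 and Insr in 9 and Sesn1 in 8. These counts are against 0, while the median of all genes was itself at 0.15, and the same count over all genes was not made. Relative to the median gene, Insr was at -0.04 and Sesn1 at 0.06 over the whole section.

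**Figure D3:**
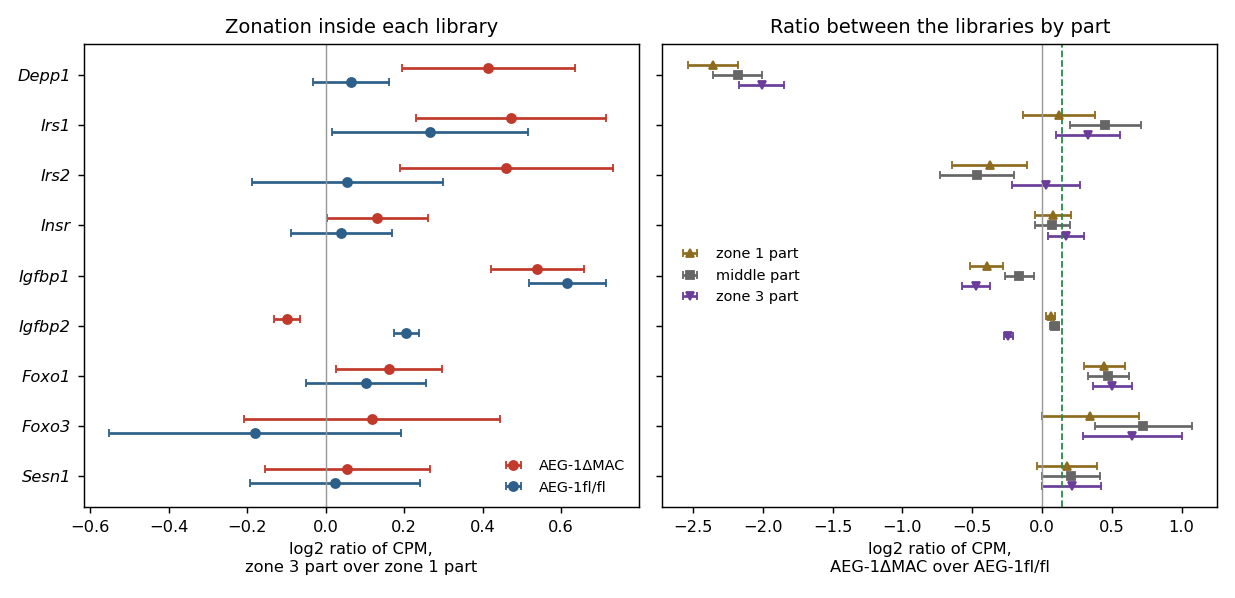
Log2 ratio of the zone 3 part over the zone 1 part inside each library (left) and log2 ratio of AEG-1ΔMAC over AEG-1fl/fl inside each part (right), with exact binomial 95% intervals. Igfbp1 is higher in zone 3 in both libraries, Igfbp2 lies on opposite sides of 0 (-0.10 and 0.21), and the Depp1 genotype ratio is between -2.36 and -2.01 in every part.

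The genes most alike to each member along the 10 bins were found by the lower of the within-library Pearson correlations of log2 CPM, over 6917 genes. They were Tmem140, Gadd45gip1 and Ppp1ca for Depp1, with r of 0.90, 0.87 and 0.86. For Igfbp1 they were Gm4756, Rdh16 and Hacd3, with r of 0.95, 0.95 and 0.94, and for Igfbp2 Raet1d, Apcs and Pzp, with 0.86, 0.85 and 0.80. The bins share library and depth, and these values are a description. Irs1 was most like Arid1b, Echdc2 and Gda (r from 0.87 to 0.88), Irs2 like Dsc2, Eaf1 and Cep68 (0.74 to 0.76), Insr like Ing4, Mplkip and Gpn1 (0.73 to 0.78), Foxo1 like Cfl2, Zfp523 and Mcl1 (0.75 to 0.76), and Sesn1 like Mapre1, Tomm34 and Abraxas2 (0.61 to 0.64). The profile of a gene over the 10 bins correlated between the libraries with r of 0.82 for Igfbp1, 0.67 for Igfbp2 and 0.60 for Depp1, down to -0.36 for Sesn1, whose profile was nearly flat.

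To see whether the genes followed other cell types, the 214 ΔMAC and 254 fl/fl spots with the most marker RNA of each type were set against all other spots of the same library. Depp1 was near the other spots in endothelium-, Kupffer-, stellate-, cholangiocyte- and vessel muscle-rich spots, with log2 ratios between -0.29 and 0.17 in ΔMAC and between -0.18 and 0.05 in fl/fl. Only the stellate-rich value in fl/fl, -0.18 (-0.33 to -0.03), had an interval away from 0. Inside those sets of spots the genotype ratio of Depp1 was between -2.48 and -2.02. Igfbp2 was lower in cholangiocyte-rich spots, at -0.32 in ΔMAC and -0.41 in fl/fl, and in vessel muscle-rich spots, at -0.27 and -0.29. With the top 20% of spots in place of the top 10%, these became -0.25 and -0.26, and -0.16 and -0.20. In Kupffer-rich spots Igfbp2 had opposite signs, 0.08 (0.03 to 0.12) in ΔMAC and -0.15 (-0.20 to -0.10) in fl/fl, a difference that was not tested. Igfbp1 was lower in Kupffer-rich spots, at -0.19 (-0.37 to -0.02) and -0.42 (-0.59 to -0.26), and in cholangiocyte-rich spots of fl/fl, at -0.42 (-0.57 to -0.27). With the top 20% of spots the Kupffer-rich values of Igfbp1 were -0.12 and -0.20. Sesn1 was higher in cholangiocyte-rich spots, at 0.31 (0.03 to 0.57) and 0.28 (0.01 to 0.54), which became 0.14 and 0.20 with the top 20%. It was also higher in vessel muscle-rich spots of ΔMAC, at 0.29 (0.02 to 0.55), against 0.23 (-0.06 to 0.50) in fl/fl. In endothelium-rich spots Sesn1 was at -0.47 (-0.83 to -0.13) in ΔMAC but 0.07 in fl/fl. That ΔMAC value became -0.10 with the top 20%. In cholangiocyte-rich spots Irs2 was at -0.43 (-0.89 to -0.01) in ΔMAC and 0.12 in fl/fl. Irs1 there was at 0.13 and -0.38 (-0.77 to -0.003), respectively. Cholangiocyte-rich spots were mostly outside zone 3, with 7.94% and 11.0% of them in the zone 3 part. Kupffer-rich spots were too, with 16.4% in ΔMAC and 11.0% in fl/fl. Igfbp1 was itself higher toward zone 3, and place in the lobule was not separated from cell type here.

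The wider pathway was described by 9 lists with 86 genes, of which 64 reached a mean of 10 CPM. Past 1.5-fold were 7 higher and 4 lower, set against 4.3% and 1.79% of all genes. The median log2 ratio was 0.21 beside 0.15 for all genes. The lower genes include Depp1, by whose ratio above all the set was chosen. The lists were also chosen with earlier results of these data known, so these counts are a description and no enrichment is read from them. With each of the alternative scalings, Igfals and Klf15 were no longer among the higher genes. Irs4 had 0 UMIs in both libraries.

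Of the receptors, substrates and adaptors, 6 of 10 passed the minimum and 0 were past 1.5-fold, with a median log2 ratio of 0.18. Among all genes, 4.3% were higher and 1.79% lower by that rule. At those shares, the counts in each of these short lists say little about the list. Among PI3K and AKT genes, 7 of 11 passed and all 7 were above the median of all genes. Pik3r1, the regulatory subunit of PI3K, had 98.7 CPM in ΔMAC and 49.2 CPM in fl/fl, a log2 ratio of 1.0, and was the only one past 1.5-fold. Akt1 (0.27), Akt2 (0.24) and Pik3ca (0.17) were close to the median. Of the inhibitors of the pathway, 5 of 9 passed and Socs3, a feedback inhibitor of cytokine and insulin receptors, was higher with 24.6 CPM against 8.51 CPM, a log2 ratio of 1.53. Below that minimum, Socs1, Socs2 and Trib3 had log2 ratios of 0.73, 1.06 and 0.96. Ptpn1 (0.09), a phosphatase that acts on the insulin receptor, was not past 1.5-fold. The 11 measured AKT targets and mTORC1 genes had 0 past 1.5-fold and a median of 0.19.

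**Figure D4:**
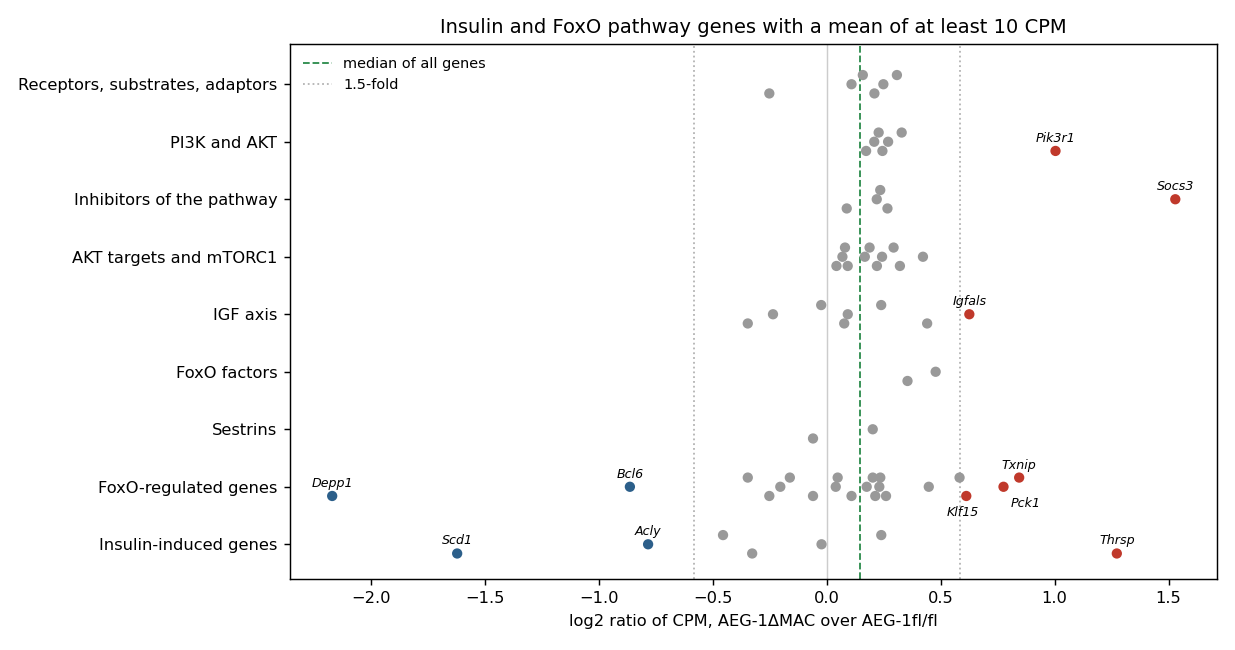
Log2 ratio of AEG-1ΔMAC over AEG-1fl/fl for each pathway gene whose mean reached 10 CPM, by list, with a gene shown in each list that holds it. Red and blue points are past 1.5-fold higher or lower, and most grey points lie close to the dashed median of all genes at 0.15.

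Of the 11 genes of the IGF axis, 8 passed the minimum. Only Igfals, the subunit that stabilises circulating IGF complexes, was past 1.5-fold, where 4.3% of all genes were higher and 1.79% lower. Igfals had 179.3 CPM in ΔMAC against 116.2 CPM in fl/fl, a log2 ratio of 0.63. Igf1 (0.09) and Igfbp3 (-0.24) were not past 1.5-fold. Of the FoxO factors, Foxo4 had a log2 ratio of 0.35, and Sesn3 among the sestrins had -0.06.

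The 24 FoxO-regulated genes did not share a direction. Of the 21 that passed the minimum, 3 were higher and 2 lower, beside 4.3% and 1.79% of all genes. Of these 21, 11 were above the median of all genes and 10 below it, and their median log2 ratio was 0.17. Past 1.5-fold lower were Depp1, by whose ratio above all the set was chosen, and Bcl6, a transcriptional repressor. Bcl6 had 72.0 CPM in ΔMAC and 131.2 CPM in fl/fl, a log2 ratio of -0.86. The gluconeogenic gene Pck1 was higher with 2053 CPM against 1200 CPM (0.78), as were Txnip, a thioredoxin inhibitor, with 92.8 CPM against 51.7 CPM (0.84), and the transcription factor gene Klf15 with 158.5 CPM against 103.7 CPM (0.61). G6pc was just inside the limit with 265.7 CPM against 177.4 CPM (0.58). Pdk4, a mitochondrial kinase gene induced in fasting, had 3.70 CPM and 10.6 CPM (-1.51) but a mean below the minimum. Pck1 belongs to the zone 1 genes of the index, so its zonation was not read.

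Of the 8 insulin-induced genes, 7 passed, with 1 higher and 2 lower, beside 4.3% and 1.79% of all genes. Their median log2 ratio was -0.33. The fatty acid desaturase gene Scd1 had 779.4 CPM in ΔMAC and 2401 CPM in fl/fl, a log2 ratio of -1.62, and the citrate lyase gene Acly 170.3 CPM and 293.4 CPM (-0.78). Thrsp, which promotes lipogenesis, went the other way with 101.8 CPM and 42.1 CPM (1.27). Srebf1 had a log2 ratio of 0.24 and Angptl8 of -0.02.

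Other genes that respond to time of day and hormones also differed between the libraries. Of 8 clock-driven genes in the files, which include core clock genes such as Nr1d1, 4 passed the minimum and all 4 were higher in ΔMAC. Over that list the summed level was 201.7 CPM against 69.5 CPM. Of 5 genes of the opposite phase, 4 passed and 3 were lower, and of 7 glucocorticoid-induced genes 6 passed and 4 were higher, with a median log2 ratio of 0.96. Of all genes, 4.3% were higher and 1.79% lower by that rule. Per1 is in both the clock-driven and the glucocorticoid list. The 4 neutrophil markers summed to 2.68 CPM in ΔMAC and 15.8 CPM in fl/fl. Most of this was S100a8 (0.88 and 5.25 CPM) and S100a9 (1.61 and 9.96 CPM). Ly6g had 0 UMIs in ΔMAC and only 3 in fl/fl, too few to compare. Summed Kupffer markers were 574.1 and 640.6 CPM, but of these 5 markers Marco (-1.38) and Fabp5 (-1.84) were past 1.5-fold lower in ΔMAC, while Cd5l (0.21), Clec4f (0.05) and Vsig4 (-0.07) were not. Summed endothelial markers were 553.6 and 570.1 CPM, stellate markers 391.9 and 393.4 CPM, cholangiocyte markers 87.3 and 88.2 CPM, with Sox9 lower (-0.91) and Spp1 at 0.24, and vessel muscle markers 26.6 and 25.3 CPM. Lymphocyte markers summed to 11.9 and 13.8 CPM, and adipocyte and pancreas markers to at most 0.53 CPM. The part of any of these in the ratio of Depp1 or of the pathway genes was not tested.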

How the data were processed

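Spatial transcriptomics counts of 1 AEG-1ΔMAC and 1 AEG-1fl/fl liver section were used, grouped by the genotype labels. The deposited files hold raw UMI counts per gene and spot, which the authors made with Space Ranger 2.0.1 on mm10 (Seurat 4.3.0 is also named in their processing notes), with no normalisation. Spots with more than 50000 UMIs, or with fewer than 100 or more than 7000 genes, were removed by the limits stated in the study, 9 AEG-1ΔMAC spots and 3 AEG-1fl/fl spots. The spot numbers stated there as left after filtering equal those of the deposited files before this step (2149 and 2543). The median spot then had 20929.5 and 18285 UMIs, respectively. The 11 symbols listed more than once were left out of lists and correlations.

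UMIs were summed over spots, scaled to CPM and compared as ratios with Python 3.11.15, NumPy 2.4.6, SciPy 1.17.1 and pandas 2.3.3, and figures were drawn with matplotlib 3.10.9. A gene was called past 1.5-fold only at a mean of at least 10 CPM, or 455 and 503 UMIs. No p-value was computed, since spots are not replicates. The calculation was tested on simulated data. Alternatives were TMM factors (edgeR 4.0.16 in R 4.3.3), median-of-ratios factors, a total without the 50 most abundant genes, all spots, a mean over spots, thinning, a fold of 2, a minimum of 1 CPM, another index and other divisions of it. The correlations over bins used a pseudocount of 0.5 CPM.

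The genes named were the 9 members, pathway genes past 1.5-fold (at most 20) and the 3 genes most alike to each member. Other genes of the lists are given as examples chosen after their values were seen. The members and lists were chosen with earlier results of these data known. Coordinates are from GENCODE on GRCm38, the same assembly as mm10, matched by Ensembl identifier. Rps6kb1, Ciart and Tf were not analysed here, and 2 other genes of the lists are not reported singly.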

Additional observations from a re-analysis of the deposited data

Results flagged for a closer look

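Among pathway genes whose mean reached 10 CPM, 3 had zonation intervals wholly on opposite sides of 0 in the libraries, given as the log2 ratio of the zone 3 part over the zone 1 part. None of these differences was tested, and the share of all genes that meet this rule was not counted. Other genes, such as Foxo3, had values of opposite sign with an interval that reached 0 in at least 1 library. Igfbp2 had -0.10 in ΔMAC and 0.21 in fl/fl, but with only the outer bins both values were negative, -0.38 and -0.046. Fasn, the fatty acid synthase gene, had -0.42 and 0.20, respectively. Thrsp had -0.29 in ΔMAC and 0.32 in fl/fl. Ranking was done inside each library, so a part of one may not match the same stretch of lobule in the other.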

How the results depend on the processing

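The log2 ratio of Depp1 was -2.30 with TMM factors, -2.30 with median-of-ratios factors and -2.31 when the 50 most abundant genes were dropped from the library size, so it moved down with the median of all genes, which these scalings put near 0. Over 6 alternative settings it lay between -2.31 and -2.13, and relative to the median gene between -2.32 and -2.27. With a fold of 2, 3 pathway genes were higher (Pik3r1, Socs3, Thrsp) and 2 lower (Depp1, Scd1). With scaling and spot settings the counts ranged from 5 to 8 higher and from 4 to 6 lower, and with a minimum of 1 CPM they were 10 higher (Socs1, Socs2 and Trib3 added) and 5 lower (Pdk4 added). With only the outer bins, zonation of Depp1 in ΔMAC was 0.64, that of Igfbp1 was 0.91 in ΔMAC and 0.76 in fl/fl, and that of Igfbp2 was -0.38 and -0.046. The cause of these shifts was not tested. Of the other comparisons under alternatives, 46 of the main values and 217 of the remaining ones stayed within their counting intervals or, for counts, within 1.5 times, and 63 of the remaining ones moved. No paired analysis was possible because the labels carry no replicate numbers and each genotype had 1 library. Depth limits the lowest genes most: Foxo3 had 365 and 490 UMIs in all, and its zonation was not detectable at this depth.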
